A study of Zea mays with 109 samples.

Results

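The abundant entries named with the prefix ZmmRNA in the total RNA of the maize inbred line B73 are described here. They were chosen by their level: an entry belonged to the set when its highest value over 26 total RNA libraries was at least 50 TPM. TPM is a length-corrected share of the RNA of a library. Of 940 ZmmRNA entries among 48367 entries of the total RNA data, 201 qualified. Just inside the limit lay ZmmRNA008964 at 50.24 TPM, ZmmRNA012334 at 50.31 TPM and ZmmRNA004513 at 51.1 TPM. Just outside lay ZmmRNA007952 at 49.8 TPM, ZmmRNA010173 at 48.8 TPM and ZmmRNA000202 at 48.1 TPM. The meaning of the prefix is not stated in the labels or files. None of the member names (0 of 201) was found in the RefSeq gene table of Zm-B73-REFERENCE-NAM-5.0, nor was any other ZmmRNA name. Only names were compared, so whether a member lies in a RefSeq gene was not tested. No gene name, position, sequence or function is therefore given for any member.

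The study sampled 26 tissues or stages of untreated B73 plants in a greenhouse with 12 h of light, 12 h of dark and 25 °C. For each tissue 3 replicates of 5 to 10 plants were prepared and mixed in equal amounts, so that 1 library stood for 1 tissue. By their names, 6 libraries came from inflorescences (2 mm, 5 mm and 1 cm ears, 2 mm and 1 cm tassels, and a tissue labelled inflorescence), 3 from the SAM at stages V1, V3 and V4, and 2 from primary roots at 6 DAS and V1. Of the rest, 2 came from stems (internode and stem at V6), 1 from the embryo and 1 from the endosperm at R2, and 11 from leaves (the first, the third, the topmost, the ear and the husk leaf, and the base and tip of the stage 2 leaf). The first leaf, the topmost leaf and the base and tip of the stage 2 leaf each had 1 library with the letter L and 1 with the letter N, which the labels do not explain. SAM commonly stands for shoot apical meristem.

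The maize shoot apical meristem is a small dome of dividing cells that produces leaves and the stem and later turns into the tassel, while ears arise from meristems in the leaf axils. Expanded leaf blades are given over to photosynthesis, and the husk leaves wrap the ear. Within the kernel the endosperm stores starch and storage protein, and the embryo, which lies against it, holds the next plant's shoot and root. An RNA that is high in a single organ is often tied to that organ's specialised work, whereas RNAs of the basic machinery of growth tend to be present everywhere and higher where cells divide.

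The limit that chose the members was passed by different shares of the name prefixes. A highest value of at least 50 TPM was reached by 21.4% of ZmmRNA entries, 15.5% of entries named GRMZM (9 of 58), 6.10% of gene model entries (2263 of 37069) and 5.88% of entries named ZmLnc (446 of 7581). None of the 940 ZmmRNA entries was listed at 0 in all 26 libraries, and neither was any of the 148 entries named ZmFusionRNA. Listed at 0 throughout were 213 of 7581 ZmLnc entries and 6212 of 37069 gene model entries. By name, 0 of 201 members were listed in the ribosome-bound data, the list of protein pairs, the circular RNA data or the small RNA data. The same held for all ZmmRNA names, with 0 of 940 in each. Whether these RNAs occur there under other names was not tested, and total RNA was their only readout here. Summed over all listed entries, a library held between 159407 TPM, in the husk leaf, and 395863 TPM, in the 2mm Tassel. The rest of the TPM scale was not used here. The members held 5.33% ± 0.291 of the listed TPM in inflorescences (SD, n = 6), 6.23% ± 0.392 in SAM (SD, n = 3) and 5.63% ± 0.660 in leaves (SD, n = 11). The lowest leaf was the husk leaf at 3.96%, and the endosperm had 7.66%.

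Most members were present in every organ, and a minority was high in a single organ. At least 1 TPM was listed in all 26 libraries for 136 of the 201 members, at least 10 TPM for 52 and at least 50 TPM for 8. For 45 members the limit of 50 TPM was passed in 1 library only, and 16 members were listed at 0 in at least 1 library. The highest library was an inflorescence for 46 members, the SAM for 35, a root for 27, a stem for 12, a leaf for 37, the embryo for 29 and the endosperm for 15. Of the 46 inflorescence members, 43 had their highest value in the 2mm Tassel. Without that library the inflorescence held 7 and the SAM 64. With the listed sums of all libraries set equal the inflorescence held 36, the stem 20 and the embryo 16, and by the highest class mean the inflorescence held 7 and the embryo 60. The 2mm Tassel also had the highest listed sum, and the part of that sum in the placement was not tested beyond this.

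**Figure D1:**
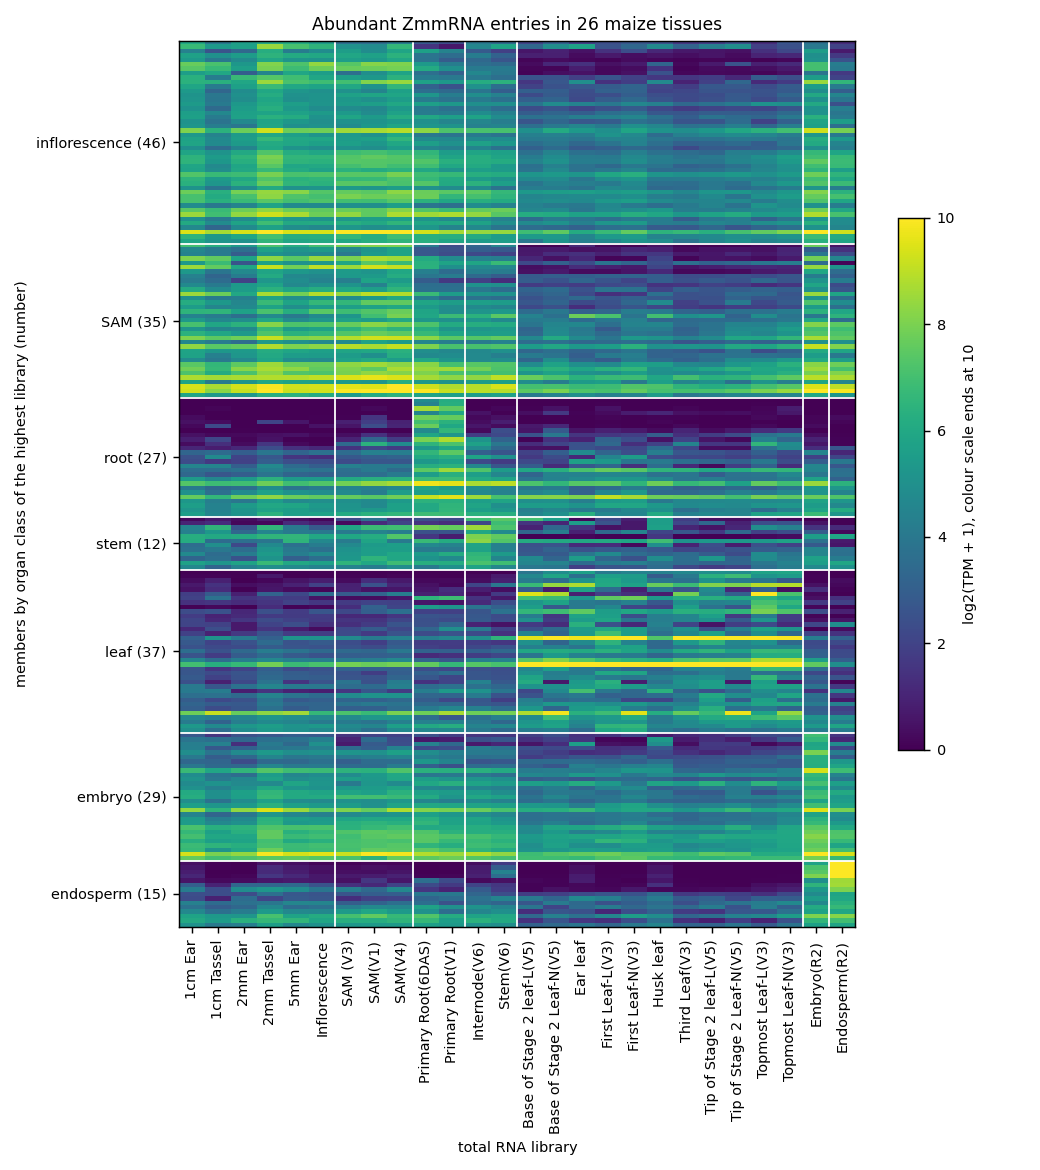
Level of the 201 members in the 26 libraries as log2(TPM + 1). Rows are members grouped by the organ class of their highest library, with the number of members in brackets and the most organ-specific members at the top of each group. Columns are libraries grouped by organ class. Most rows of the inflorescence, SAM and embryo groups are bright in all of these organs and dimmer in leaves, while the top rows of the root, leaf and endosperm groups are dark elsewhere.

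How far the highest value stood above the other organs differed between these groups. In the leaf group the highest value was at the median 7.19 times the highest value of any other organ, and for 12 of 37 members it was at least 10 times as high. In the endosperm group the median ratio was 3.13, and 5 of 15 members reached 10 times. In the root group the median ratio was 1.86, and 9 of 27 members reached 10 times. In the inflorescence and SAM groups the median ratios were 1.12 and 1.12, and 0 of 46 and 0 of 35 members reached 10 times. These 2 groups bordered on each other: the next highest organ was the SAM for 36 of the 46 inflorescence members, and an inflorescence for 26 of the 35 SAM members. In the embryo group 1 of 29 members reached 10 times, and in the stem group 0 of 12 did. Because the highest value chose the members, these ratios are a description.

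Tissue specificity was also expressed as tau over the 7 organ class means of log2(TPM + 1), where 0 means equal levels in all classes and 1 means a level in a single class. The median tau was 0.284 for the 201 members and 0.387 for the 2737 other entries with a highest value of at least 50 TPM. A tau of at least 0.8 was found for 20 members, or 9.95%, and for 544 of the other entries, or 19.9%. These counts depended on the scale: without a log step they were 60 members (29.9%) and 1142 other entries (41.7%), and with a pseudocount of 0.1 TPM 11 members (5.47%) and 322 other entries (11.8%). A tau below 0.2 was found for 75 members, or 37.3%, and for 613 of the other entries, or 22.4%. Of the 20 most specific members, 10 were highest in roots, 5 in endosperm, 4 in leaves and 1 in a stem.

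By tau, the 5 most restricted members were 3 root entries, ZmmRNA002055, ZmmRNA000914 and ZmmRNA001431, and 2 leaf entries, ZmmRNA004758 and ZmmRNA007205. ZmmRNA002055 had the highest tau of the set, 0.9997, with 27.8 TPM in the root at 6 DAS, 71.3 TPM in the root at V1 and at most 0.02 TPM in each of the other 24 libraries. ZmmRNA000914 had 20.5 and 76.2 TPM in the roots at 6 DAS and V1 and at most 0.04 TPM elsewhere. Both were higher in the root at V1. ZmmRNA001431 had 390.03 TPM at 6 DAS and 186 TPM at V1, and its highest value outside roots was 0.74 TPM, in the Topmost Leaf-N. ZmmRNA012000 had 225 and 200 TPM in the same roots and at most 1.93 TPM elsewhere, in the SAM at V1. Across the 27 members of the root group, 9 were higher at 6 DAS and 18 at V1. The root group also held broadly present members, among them ZmmRNA009196 with 854 and 772 TPM at 6 DAS and V1 and at least 51.9 TPM in every library.

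The endosperm group was led by 4 members with very similar profiles. ZmmRNA006903 was listed at 5415 TPM in the endosperm, ZmmRNA002477 at 3534 TPM, ZmmRNA002489 at 2646 TPM and ZmmRNA002490 at 1155 TPM. Their embryo values were 264, 169, 141 and 53.2 TPM in the same order, which is 4.88%, 4.79%, 5.32% and 4.61% of the endosperm values. The embryo share thus lay in a narrow range while the endosperm levels spanned several-fold. Outside the kernel the stem at V6 was highest for each of the 4, at 11.2, 20.3, 6.67 and 2.28 TPM. The internode of the same stage had 0.89, 0.71, 0.66 and 0.25 TPM. Roots and leaves had at most 0.87 TPM of ZmmRNA006903 and at most 0.48, 0.48 and 0.20 TPM of the other three. Whether endosperm RNA reached the embryo and stem libraries was not tested. ZmmRNA002489 and ZmmRNA002490 carry consecutive numbers. Among the next members of this group the embryo share varied widely. ZmmRNA004914 had 89.7 TPM in embryo and 386 TPM in endosperm, or 23.2%, and ZmmRNA006017 had 30.4 and 376 TPM, or 8.08%. ZmmRNA000617 had 266 and 288 TPM, or 92.4%, and ZmmRNA009152 had 39.1 and 257 TPM, or 15.2%.

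In the embryo group the embryo value was at the median 1.20 times the highest value of any other organ. The next highest organ was an inflorescence for 13 of the 29 members, the SAM for 7, a root for 5, a leaf for 3 and the endosperm for 1. ZmmRNA004903 had 994 TPM in the embryo, 988 TPM in the SAM at V1 and 968 TPM in the 2mm Tassel, and ZmmRNA009287 had 716 TPM in the embryo and 695 TPM in the 2mm Tassel. Of the 29, 6 had an embryo value at least 2 times that of every other organ. ZmmRNA006308 was among them, with 657 TPM in the embryo, 117 TPM in the endosperm and at most 159 TPM elsewhere, in the 2mm Tassel. ZmmRNA001507 stood out furthest, with 120 TPM in the embryo, 17.2 times its highest value in any other organ, and 2.01 TPM in the endosperm. ZmmRNA007902 had 250.4 TPM in the embryo, 17.9 TPM in the endosperm and at most 49.9 TPM elsewhere, in the SAM at V4. With 1 library each, embryo and endosperm values have no replicate check and were not tested.

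**Figure D2:**
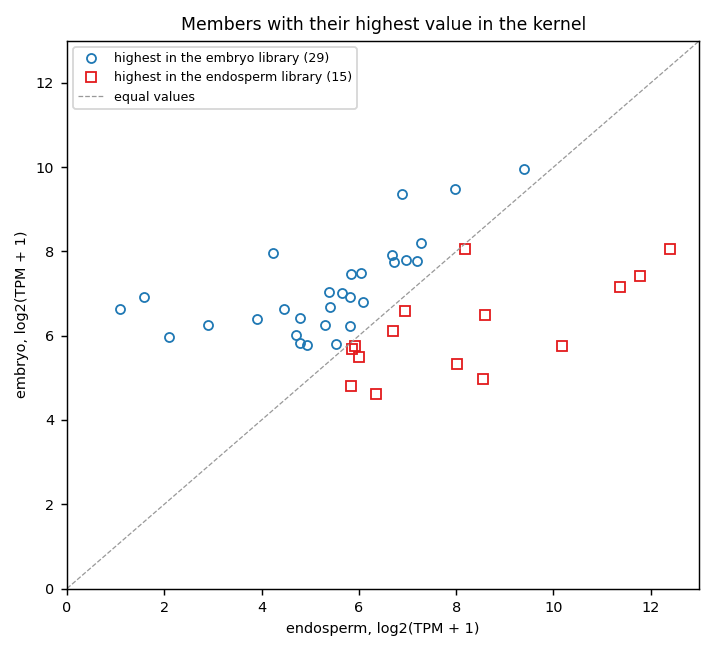
Embryo against endosperm level, both as log2(TPM + 1), for the 44 members with their highest value in the kernel. Circles are the 29 embryo members, squares the 15 endosperm members and the dashed line marks equal values. The 4 endosperm members farthest to the right lie at 1155 to 5415 TPM in the endosperm and at 53.2 to 264 TPM in the embryo.

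The leaf group held the member with the highest value of all, ZmmRNA001195. It was listed at 10907 TPM in the tip of the stage 2 leaf with the letter L, and its 11 leaf values had a lowest of 1306 TPM in the husk leaf and a median of 6910 TPM. Its highest value outside leaves was 240.3 TPM, in the SAM at V4. ZmmRNA004443 had a lowest of 156 TPM, again in the husk leaf, a median of 973 TPM and a highest of 2322 TPM in the tip of the stage 2 leaf with the letter N, and at most 93.4 TPM elsewhere, in the stem at V6. The husk leaf was the lowest leaf for 16 of the 37 leaf members. It also had the lowest listed sum of all libraries, and the part of that sum in these low values was not tested. ZmmRNA002313 behaved unlike ZmmRNA001195 and ZmmRNA004443, since its leaves ranged widely. It had 1511 TPM in the Topmost Leaf-L, 730 TPM in the stage 2 leaf base with the letter L, 444 TPM in the base with the letter N, 240 TPM in the third leaf and 139 TPM in the Topmost Leaf-N. The other 6 leaves had 0.68 to 21.04 TPM, which overlaps the SAM values of 6.40 to 17.7 TPM and the inflorescence values of 0.83 to 10.9 TPM. ZmmRNA004758, the most specific leaf member, had 13.8 TPM at the lowest, 28.01 TPM at the median and 56.7 TPM at the highest of the 11 leaves and at most 0.05 TPM in every other library.

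The stem group was small, and 10 of its 12 members were higher in the internode than in the stem sample. The listed sum was also higher in the internode, at 213314 TPM, than in the stem, at 172884 TPM. The part of these sums in that count was not tested. ZmmRNA001709 had 375 TPM in the internode and 144 TPM in the stem, and also 237 and 197 TPM in the roots at 6 DAS and V1. ZmmRNA005711 had 306 and 155 TPM in internode and stem. ZmmRNA011247 had 260 and 185 TPM there, 60.3 to 156 TPM in the SAM and 62.4 to 93.9 TPM in inflorescences, while roots had 2.03 and 0.74 TPM and leaves at most 2.10 TPM. It was thus high in shoot axes and their meristems and low in leaves and roots.

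At the other end stood members present at high level everywhere. The 8 members with at least 50 TPM in all 26 libraries were ZmmRNA001628, ZmmRNA003733, ZmmRNA004903, ZmmRNA006289, ZmmRNA006632, ZmmRNA008150, ZmmRNA008881 and ZmmRNA009196. ZmmRNA001628 lay between 85.3 TPM, in the SAM at V1, and 241 TPM, in the embryo. ZmmRNA006289 had 981 to 1176 TPM in the SAM, 298 to 1129 TPM in inflorescences and 130 to 349 TPM in leaves. ZmmRNA008881 had 731 to 1010 TPM in the SAM, 423 to 967 TPM in inflorescences and 71.1 to 163 TPM in leaves. In both, leaves were lowest on average but stayed above the limit of 50 TPM. The lowest tau of the set, 0.0812, belonged to ZmmRNA008905, which ranged between 14.6 and 83.8 TPM.

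**Figure D3:**
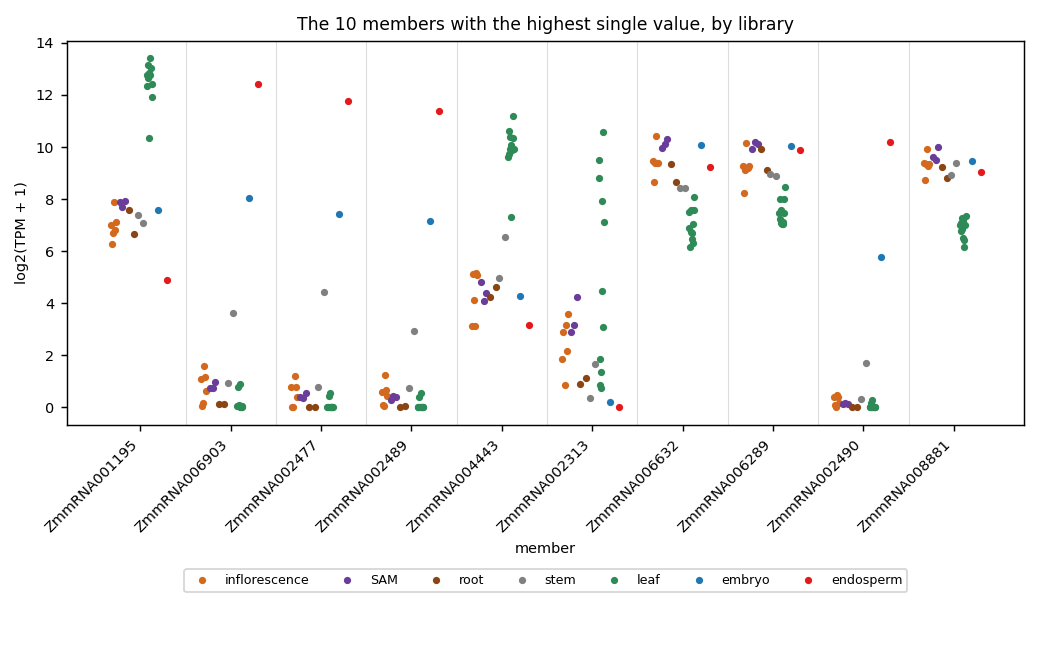
The 10 members with the highest single value, in order of that value. Each point is 1 library, the vertical axis is log2(TPM + 1) and colour gives the organ class. ZmmRNA001195 and ZmmRNA004443 are highest in leaves, 4 members are highest in the endosperm point and near 0 in leaves, ZmmRNA002313 is spread over the whole axis within leaves, and ZmmRNA006632, ZmmRNA006289 and ZmmRNA008881 are high in all organs.

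Organs were compared with leaf by limma on log2(TPM + 1), with the tissues of an organ class as the units. A call required an adjusted p under 0.05 (Benjamini-Hochberg, over all 24997 entries tested) and a log2 fold change of 1 or more in either direction. All 201 members were tested. On this scale the change of a low entry is understated. The p-values measure the spread between the tissues of a class, which differ in age and position. The spread of an entry was estimated over all classes together. For root and stem, with 2 libraries each, it came mostly from leaves and the other classes. The L and N leaves of a position were counted as separate units, so the p-values may be too small. The 4 comparisons share the 11 leaf libraries. Values of all entries together were shifted in each: the median log2 fold change of all tested entries was 0.65 for inflorescence, 0.74 for SAM, 0.65 for root and 0.35 for stem, and 0.08, 0.05, 0.03 and 0.06 after quantile normalization, which gives all libraries the same distribution. Since the limit of 50 TPM could be met in either group compared, the counts of members below are a description.

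In inflorescences 108 members were higher and 35 lower than in leaf, and 58 were not called. Among all entries 47.3% were called, 36.8% higher and 10.5% lower. The share of members called was 71.1%, close to the 70.4% of the other entries with at least 50 TPM. By direction, 53.7% of members and 45.3% of those other entries were higher, and 17.4% and 25.1% lower. After quantile normalization these shares were 39.8% and 34.9% higher, and 23.9% and 29.6% lower. Quantile normalization left 80 members higher and 48 lower, against 18.1% and 17.6% of all entries (35.7% together), and 0 of the members called before turned sign. The median log2 fold change of the members was 1.21, and 0.60 after quantile normalization. Of the 143 called members, 86 had no overlap between the 6 inflorescence and the 11 leaf values. The matching share over all entries was not computed, so this count says nothing particular about the members.

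The largest increases were in 5 members that were nearly absent from leaves. ZmmRNA012806 had 60.7 TPM at the lowest, 302 TPM at the median and 569 TPM at the highest of the 6 inflorescences, and 0.30, 0.82 and 3.20 TPM at the lowest, median and highest of the 11 leaves. The groups did not overlap, and the log2 fold change was 7.07 (SE 0.361, adjusted p = 5.1e-13). ZmmRNA011771, ZmmRNA012452, ZmmRNA005089 and ZmmRNA001553 followed with log2 fold changes of 6.96, 6.63, 6.30 and 6.13. Their inflorescence medians were 229, 142, 99.8 and 174 TPM, and their leaf medians 0.42, 0.24, 0.04 and 0.84 TPM. In all 5 the 2mm Ear was the lowest inflorescence, with 60.7, 54.8, 49.7, 40.4 and 37.9 TPM.

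The same comparison lowered the leaf members most. ZmmRNA005555 had 0.30, 0.78 and 2.83 TPM at the lowest, median and highest of the inflorescences and 51.2, 270.3 and 481 TPM in leaves, and it fell by 6.65 on the log2 scale (SE 0.473, adjusted p = 7.4e-11). ZmmRNA004443 fell by 5.62, ZmmRNA001195 by 5.55, ZmmRNA007205 by 4.93 and ZmmRNA004758 by 4.83, with no overlap of the groups in any of the 5. ZmmRNA001195 still had 76.5 to 235 TPM in inflorescences, whereas ZmmRNA004758 had at most 0.04 TPM.

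In the SAM 122 members were higher and 31 lower than in leaf. Among all entries 50.2% were called, 40.8% higher and 9.43% lower. The share of members called was 76.1%, and that of the other entries with at least 50 TPM was 70.4%. With quantile normalization 83 members were higher and 42 lower, against 18.4% and 17.3% of all entries (35.7% together). The share called was then 62.2% among members and 62.3% among those other entries, so that the small difference in this share was not kept. Split by direction, 60.7% of members and 48.4% of those other entries were higher before this normalization, and 15.4% and 21.99% lower. After it these shares were 41.3% and 34.8% higher, and 20.9% and 27.4% lower. Members were thus more often higher and less often lower than those other entries in both settings. The 5 largest increases were those of ZmmRNA012806, ZmmRNA005089, ZmmRNA011771, ZmmRNA012452 and ZmmRNA001553, and the leaves are the same as in the comparison of inflorescences. ZmmRNA012806 had 660 TPM at V1, 375 TPM at V3 and 563 TPM at V4 (log2 fold change 8.07, SE 0.464, adjusted p = 7.8e-12). ZmmRNA005089 had 285, 255 and 258 TPM at V1, V3 and V4 (log2 fold change 7.86, SE 0.353, adjusted p = 3.4e-13). It was steadier between the 3 stages than ZmmRNA012806. Of the members that fell, ZmmRNA007923 had 0.25, 0.25 and 0.51 TPM at V1, V3 and V4 and 36.5, 78.3 and 219.5 TPM at the lowest, median and highest of the leaves (log2 fold change -5.995, SE 0.503, adjusted p = 1.8e-09). In roots ZmmRNA007923 had 89.5 and 117 TPM at 6 DAS and V1 and was not called (log2 fold change 0.29, SE 0.594, adjusted p = 0.72).

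In roots 128 members were higher and 20 lower than in leaf. Among all entries 40.4% were called, 34.1% higher and 6.27% lower. The share of members called was 73.6%, and that of the other entries with at least 50 TPM was 70.3%. By direction, 63.7% of members and 53.8% of those other entries were higher, and 9.95% and 16.5% lower. After quantile normalization these shares were 38.3% and 29.9% higher, and 14.9% and 19.1% lower. With quantile normalization 77 members were higher and 30 lower, against 12.9% and 10.8% of all entries (23.7% together). With each library rescaled after removal of the most abundant leaf entry, which was added after seeing the data, the counts were 88 higher and 28 lower. Without the root at 6 DAS 101 members were called, and without the root at V1 128. The largest increases were those of the specific root members. ZmmRNA001431 had 390.03 and 186 TPM in the roots at 6 DAS and V1, and 0, 0.03 and 0.74 TPM at the lowest, median and highest of the leaves (log2 fold change 7.89, SE 0.208, adjusted p = 5.9e-19). ZmmRNA012000 followed with 7.66 (SE 0.230, adjusted p = 7.3e-18). ZmmRNA002291, at 250.3 and 452 TPM in the roots at 6 DAS and V1, was also present in some leaves, up to 19.6 TPM in the Topmost Leaf-L, and its increase of 6.67 on the log2 scale had a wider error (SE 0.892, adjusted p = 2.8e-06). ZmmRNA005555 had the largest decrease, with 0.35 and 0.13 TPM in the roots, and it fell by 7.35 on the log2 scale (SE 0.716, adjusted p = 2.3e-08).

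In stems 97 members were higher and 22 lower than in leaf. Among all entries 29.7% were called, 21.8% higher and 7.92% lower. The share of members called was 59.2%, close to the 58.2% of the other entries with at least 50 TPM. By direction, 48.3% of members and 40.3% of those other entries were higher, and 10.9% and 17.9% lower. After quantile normalization these shares were 41.8% and 31.9% higher, and 14.4% and 20.8% lower. With quantile normalization 84 members were higher and 29 lower, against 13.5% and 12.7% of all entries (26.2% together). This comparison rested on 2 unlike libraries: 65 members were called without the internode and 102 without the stem at V6. ZmmRNA011247 had 260 and 185 TPM in internode and stem, and 0, 0.01 and 2.10 TPM at the lowest, median and highest of the leaves (log2 fold change 7.56, SE 0.355, adjusted p = 2.1e-12). ZmmRNA001709 had 375 and 144 TPM, and 0.37, 1.15 and 49.9 TPM in the leaves (log2 fold change 5.64, SE 1.23, adjusted p = 0.0011). Without the internode its log2 fold change was 4.96 and its call was lost (adjusted p = 0.053); the remaining stem library was then assumed to vary like the other classes. ZmmRNA003438 had 118 and 168 TPM, and 0.15, 0.78 and 129 TPM in the leaves (log2 fold change 4.88, SE 1.36, adjusted p = 0.0071). Its groups overlapped, because the base of the stage 2 leaf with the letter L had 129 TPM, the base with the letter N 48.1 TPM and the husk leaf 45.9 TPM. Its log2 fold change was 5.14 without the internode and 4.63 without the stem, with adjusted p of 0.074 and 0.068 under the same assumption. ZmmRNA001195, in contrast, fell in both stem samples, which had 165 and 136 TPM (log2 fold change -5.28, SE 0.515, adjusted p = 1.0e-07).

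**Figure D4:**
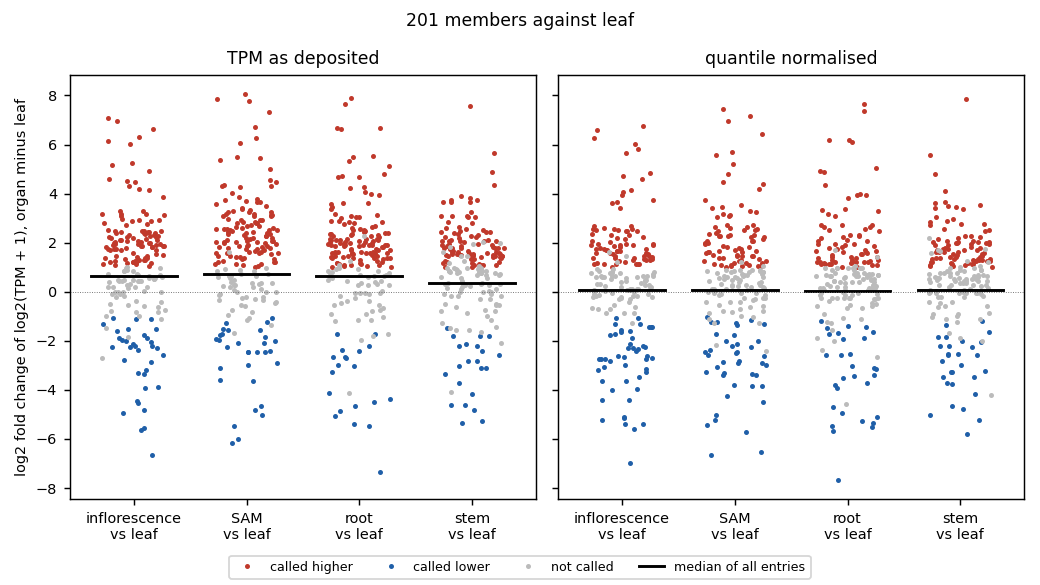
Log2 fold change of log2(TPM + 1), organ minus leaf, for the 201 members in 4 comparisons, with the TPM as deposited on the left and after quantile normalization on the right. Each point is 1 member, red is called higher, blue is called lower and grey is not called. The black line is the median of all entries tested, which lies between 0.35 and 0.74 on the left and between 0.03 and 0.08 on the right, where fewer members are called higher.

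The leaves with the letters L and N were compared at 4 leaf positions, with the position as a block. Of the 201 members 179 passed the filter of at least 1 TPM in at least 2 of these 8 libraries, and 22 were not tested. Higher values in L were called for 15 members and lower values for 7. Among the 16238 entries tested 6.69% were called, 3.49% higher in L and 3.21% lower. The share of tested members called was 12.3%, close to the 13.04% of the other entries with at least 50 TPM. By direction, 8.38% of tested members and 6.78% of those other entries were higher in L, and 3.91% and 6.26% lower. With quantile normalization 15 were higher and 5 lower, against 4.22% and 1.8% of all entries (6.02% together). The median log2 fold change of all tested entries was -0.21, and -0.04 after quantile normalization.

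ZmmRNA011547 differed most between the letters. It had 70.1, 79.6, 47.9 and 47.3 TPM in the L libraries of the stage 2 leaf base, the first leaf, the stage 2 leaf tip and the topmost leaf. In the N libraries of the same positions it had 0.58, 0.74, 0.60 and 0.61 TPM. The groups lay far apart, with little spread within either (log2 fold change 5.22, SE 0.160, adjusted p = 0.00051). The leaves without a letter were higher than all N leaves, with 40.8 TPM in the ear leaf, 33.6 TPM in the third leaf and 13.4 TPM in the husk leaf. Outside leaves it had 0.86 to 20.6 TPM, apart from the endosperm at 0.11 TPM, so that N leaves were lower than every other library but the endosperm.

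ZmmRNA012740, ZmmRNA001733 and ZmmRNA011810 were also higher in every L leaf than in every N leaf. ZmmRNA012740 had 16.98, 49.3, 48.7 and 15.7 TPM in L and 2.07, 4.16, 2.13 and 2.41 TPM in N at the base, first leaf, tip and topmost leaf (log2 fold change 3.03, SE 0.292, adjusted p = 0.0044). ZmmRNA001733 had 6.28, 10.5, 26.6 and 7.20 TPM in L and 0.64, 0.83, 1.22 and 0.29 TPM in N (log2 fold change 2.78, SE 0.238, adjusted p = 0.0035). ZmmRNA011810 had 31.8, 58.2, 33.1 and 35.8 TPM in L and 2.55, 13.3, 6.13 and 2.46 TPM in N (log2 fold change 2.73, SE 0.265, adjusted p = 0.0045). These 3 members were highest in leaves among all organs, and among the leaves without a letter they had 53.3, 53.8 and 44.9 TPM in the ear leaf. They had 18.6, 14.3 and 18.2 TPM in the husk leaf and 22.4, 4.94 and 22.4 TPM in the third leaf. In the third leaf ZmmRNA001733 and ZmmRNA011810 were below every L leaf, and ZmmRNA011810 was so in the husk leaf as well. ZmmRNA011028 also varied between positions, with 47.5, 23.6, 12.8 and 179 TPM in L and 5.84, 3.26, 5.30 and 61.1 TPM in N. L and N overlapped across positions, but L was higher at each of them (log2 fold change 2.01, SE 0.308, adjusted p = 0.010).

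The largest decrease was that of ZmmRNA010131. It had 446, 120, 108 and 54.1 TPM in L and 916, 748, 846 and 351 TPM in N at the base, first leaf, tip and topmost leaf (log2 fold change -2.32, SE 0.346, adjusted p = 0.0098). The groups overlapped through the base of the L leaf, at 446 TPM, and the topmost N leaf, at 351 TPM. Unlike most members it was also high in the 1cm Tassel, at 551 TPM, and low in embryo and endosperm, at 7.77 and 3.60 TPM. ZmmRNA003146, ZmmRNA005759, ZmmRNA003744 and ZmmRNA004497 fell by 1.24, 1.18, 1.18 and 1.17 on the log2 scale (SE 0.112, 0.185, 0.186 and 0.115). They were highest in the endosperm or the SAM, and ZmmRNA005759 had 24.2, 14.3, 27.6 and 60.2 TPM in L and 68.0, 41.5, 61.6 and 96.7 TPM in N, against 474 to 618 TPM in the SAM. After quantile normalization ZmmRNA004497 fell by 0.98, short of the limit of 1. Without the block the adjusted p was 0.33 for ZmmRNA011028, 0.087 for ZmmRNA010131, 0.16 for ZmmRNA003146, 0.22 for ZmmRNA005759 and 0.21 for ZmmRNA003744.

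**Figure D5:**
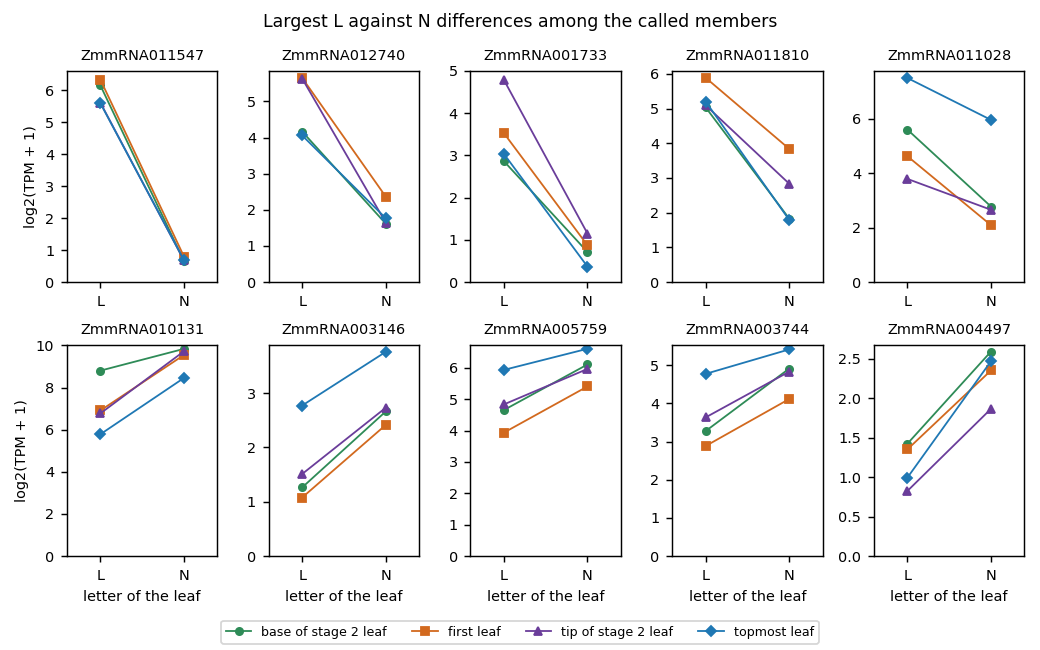
Level of the 10 members with the largest called differences between L and N leaves, 5 higher in L in the upper row and 5 lower in L in the lower row. In each panel the left points are L and the right points are N, a line joins the libraries of a leaf position, and the vertical axis is log2(TPM + 1) with its own range per panel. ZmmRNA011547 lies between 47.3 and 79.6 TPM in L and between 0.58 and 0.74 TPM in N.

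Members were also compared by the likeness of their profiles, as Pearson's r of log2(TPM + 1) over the 26 libraries. These values are descriptions, since the libraries share scaling and entries that are high only in the same 1 or 2 libraries correlate for that reason. The most alike of all tested entries was a gene model for 175 members, another ZmmRNA entry for 15 and a ZmLnc entry for 11, or 87.1%, 7.46% and 5.47% of the members. These prefixes made up 81.4%, 3.62% and 13.8% of the entries tested. The highest r of a member was 0.97 at the median and 0.69 at the lowest, for ZmmRNA005248. For ZmmRNA006903 and ZmmRNA002477 the most alike entries were members, ZmmRNA002489 and ZmmRNA006903, at r = 1.00 in both cases after rounding. ZmmRNA001195 was most like the gene model Zm00001d036630 (r = 0.98), whose highest value was 133 TPM, and ZmmRNA004443 was most like ZmLnc002529 (r = 0.99), with up to 2236 TPM. ZmmRNA006289 was most like the member ZmmRNA002706 (r = 1.00 after rounding), which ranged from 26.4 TPM in the third leaf to 323 TPM in the SAM at V1. ZmmRNA002313 had looser company, with r = 0.89 to ZmLnc002203. Among members with consecutive numbers there were 7 pairs. ZmmRNA002489 with ZmmRNA002490 and ZmmRNA003672 with ZmmRNA003673 had r = 0.99 in each case, while ZmmRNA003720 with ZmmRNA003721 had r = -0.25, the first being highest in the embryo and the second in a leaf. The remaining pairs lay between these, with r from 0.47 to 0.86. Over all pairs of members the median r was 0.29.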

How the data were processed

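The authors deposited total RNA as TPM per entry and tissue, and the submitters' processing notes name B73 RefGen_v4, HISAT, StringTie, RSEM, Bowtie 1.1.2, SAMtools 1.9 and cutadapt 1.9.1 without their roles. TPM keep no read depth, so depth is unknown and counting intervals cannot be given. A line that held 2 records was split. Members and lists were chosen with earlier results of these data known. Values were tested as log2(TPM + 1) with limma 3.58.1 (mean-variance trend) in R 4.3.3, in 1 fit over all 26 libraries with organ class as the factor, and for L against N in 1 fit over 8 leaves with leaf position as a block. Tests covered entries that reached 1 TPM in 2 or more libraries, with Benjamini-Hochberg adjustment over all of them. The script was tested on simulated data. Labels name the leaf position of each L and N library, and same-position libraries deviated together from their letter's mean (r = 0.54 to 0.85 over 16238 entries). Named are the 10 highest members, the 3 highest per organ class, the 5 largest called changes per direction and the 5 highest and 5 lowest tau. ZmmRNA000617, ZmmRNA001507, ZmmRNA002706, ZmmRNA004914, ZmmRNA005248, ZmmRNA006017, ZmmRNA007902, ZmmRNA009152 and the consecutive-number pairs were named after their values were seen. Alternatives were another pseudocount, no filter, quantile normalization, rescaled sums, no block and leaving out each inflorescence, SAM, root or stem library or each leaf position in turn.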

Additional observations from a re-analysis of the deposited data

Results flagged for a closer look

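Groups of 4 or 6 libraries were examined for named members and for the members' share of the listed TPM. In 8 of 41 such groups a single library lay far from the others of its group. Chance marks about 1 in 20 groups in this way when the values are replicates with a normal spread. These groups hold TPM or shares of different tissues or leaf positions, so that rate need not hold and no excess can be read from the count. Among the inflorescences the 2mm Tassel stood apart for 2 members: ZmmRNA006632 had 1379 TPM there and 404 to 704 TPM in the other 5, and ZmmRNA007205 had 0.58 TPM there and 0.02 to 0.07 TPM in the others. That library had the highest listed sum of all 26. Among L leaves, ZmmRNA011810 had 58.2 TPM in the first leaf and 31.8 to 35.8 TPM in the others, ZmmRNA010131 had 446 TPM at the base of the stage 2 leaf and 54.1 to 120 TPM in the others, and ZmmRNA003146 had 5.83 TPM in the topmost leaf and 1.11 to 1.85 TPM in the others. Among N leaves, ZmmRNA012740 had 4.16 TPM in the first leaf and 2.07 to 2.41 TPM in the others, ZmmRNA011028 had 61.1 TPM in the topmost leaf and 3.26 to 5.84 TPM in the others, and ZmmRNA003146 had 12.6 TPM in the topmost leaf and 4.33 to 5.64 TPM in the others. The topmost leaf thus stood apart in both letters for ZmmRNA003146, a difference between positions that the block removes.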

How the results depend on the processing

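For members named by a comparison, 497 of 508 alternative values kept direction and call, 11 kept direction but lost the call, in 8 results, and 0 reversed. These members were picked for their large called changes, which favours such stability. Over all called members, quantile normalization kept direction and call for 115 of 143 in inflorescence, 114 of 153 in SAM and 97 of 148 in root. In stem it kept 105 of 119, and in L against N 20 of 22. Without the replicate block, L against N called 5 members in place of 22 and 420 entries in place of 1087. Leaving out each stem or root library in turn, 65 to 102 members were called in stem and, over all entries, 3418 to 6925 in stem and 6058 to 7885 in root, with all libraries 119, 7434 and 10099. The lowest counts came without the internode and without the root at 6 DAS. Quantile normalization gave 5923 entries in root. A pseudocount of 0.1 gave 11516 entries in stem and 2200 in L against N, and rescaled sums gave 13057 and 1852. With limits of 25 and 100 TPM the set held 350 and 106 entries. A tau of at least 0.8 was found for 60 members without a log step and for 11 with a pseudocount of 0.1. By highest class mean, 7 members fell to the inflorescence and 60 to the embryo. Without the 2mm Tassel, an alternative chosen after seeing the data, 7 fell to the inflorescence and 64 to the SAM. With rescaled libraries, likewise chosen later, 20 fell to the stem and 16 to the embryo. The cause of these shifts was not tested. Without the husk leaf and 1cm Tassel, or without the 4 N leaves, also chosen later, 147 or 152 members were called in inflorescence, 152 or 154 in SAM, 149 or 154 in root and 124 or 132 in stem. Without the first leaf, ZmmRNA005759 and ZmmRNA003744 had adjusted p of 0.053 and 0.0502 (limma). Depth behind TPM is unknown, and 1 library per tissue gives no replicate of a tissue.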
